A study of Mus musculus with 49 samples.

Results

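The genes described here are the chromatin regulator families of the mouse, taken as every array probe whose current gene symbol begins with Kdm, Kmt, Hdac, Dnmt, Smarc, Arid, Ezh, Cbx, Prmt, Setd or Suv39h, or belongs to the numbered Sirt, Tet, Chd and Brd series. The rule uses names only and no measured value. It found 105 of the 13852 genes that a probe named, through 122 probes, and the brightest probe stood for each of the 15 genes with several. These are 16 lysine demethylases (KDM), 13 Smarc genes, counted as SWI/SNF and ISWI, and 13 further lysine methyltransferases (KMT and SETD). There are 10 histone deacetylases, 9 CHD remodellers, 8 ARID proteins, 8 arginine methyltransferases (PRMT), 7 sirtuins and 5 BRD proteins. The rest are 5 genes of DNA methylation and its removal, 4 histone H3 lysine 9 methyltransferases, 4 Polycomb CBX proteins, the 2 EZH enzymes and the HP1 gene Cbx5. Families follow gene names, so single members may act otherwise.

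Chromatin regulators set how tightly DNA is packed and which genes can be read. DNA methyltransferases add methyl groups to cytosine and TET enzymes oxidise them. Histone methyltransferases and demethylases write and erase lysine methylation, EZH enzymes being the catalytic subunits of Polycomb repressive complex PRC2 and CBX proteins the readers of its mark in PRC1. Deacetylases and sirtuins remove acetyl groups, BRD proteins read them, and SWI/SNF, ISWI and CHD ATPases move nucleosomes. In pluripotent cells these families are known for holding an open but poised chromatin, and several of them are known aids or barriers to reprogramming.

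The study asked which factors besides Oct4, Sox2, Klf4 and cMyc take part in turning fibroblasts into induced pluripotent stem cells (iPSCs), and measured RNA on 49 one-colour arrays in 23 groups. The fibroblasts (MEF) were of strain OGXICR, female, labelled D13.5, and taken from skin with limbs, tails and epiderm removed. They were infected through a dox-inducible lentiviral system with EV (not spelled out in the labels), with the mixes labelled SKM or OKM plus EV, or with SKM or OKM plus 1 further factor. The control MEF1 EV is labelled for OCT4 substitutes and MEF2 EV for SOX2 substitutes, and a group of MEF was not infected.

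The deposited values fell into 5 sets of arrays with the same pattern of missing probes. These sets were taken as normalized separately, so groups are compared only inside a set. One set holds embryonic stem cells (ESC) B6, of strain C57BL\6, on 3 arrays, with a value for 101 of the 105 genes. Another holds MEF2 EV (2 arrays) and OKM+EV (3 arrays), with 94 genes. A further set holds OKM+SOX1, OKM+SOX2, OKM+SOX3 and OKM+GMNN, 2 arrays each, with 89 genes. The largest holds MEF1 EV, SKM+EV, and SKM with OCT4, GATA6, SOX7, PAX1, GATA4, CEBPa, HNF4a, GRB2 or MIXL1, 2 arrays each and 3 for GATA4+SKM, with 82 genes. The set of established lines holds uninfected MEF, iPSC G6Gm, iPSC G3, ESC R1 (strain 129) and iPSC Dlx3RNAi (labelled with Dlx3 RNAi), 2 arrays each, with 92 genes. Only 70 of the 105 had a value in all 5 sets. iPSC and ESC lines were kept with PD0325901 and CHIR99021, or LIF in their place, on mitomycin C-treated MEF, so arrays of these lines may hold feeder RNA. No label says that arrays of a group came from separate cultures, so p-values measure only the spread between these arrays.

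Arrays of a group correlated at 0.983 or higher over all genes in the set of ESC B6, the set of the SKM groups and the set of the iPSC lines. In the set of MEF2 EV and OKM+EV, OKM+EV replicate 3 stood apart, at 0.842 and 0.884 with the other arrays of its group, which correlated at 0.985 with each other. In the set of the OKM+SOX groups, OKM+SOX2 replicate 1 correlated at 0.906 with replicate 2 and at 0.891 to 0.902 with the other groups, while replicate 2 reached 0.970 to 0.977 with those. The transcripts of the added factors did not check the labels. Of the 9 factors added to SKM, 4 had a value. Pou5f1 (OCT4) alone was above both SKM+EV arrays, at 158.5 to 170.0 against 107.8 to 129.0, while Gata6 and Gata4 were below them in their own groups. Klf4 read 1663 to 1723 in SKM+EV against 3511 to 3673 in MEF1 EV. In OKM+EV, Klf4 read 428.2 to 831.1 and Pou5f1 56.0 to 254.8, against 774.4 to 853.2 and 89.6 to 99.8 in MEF2 EV. Sox1 in OKM+SOX1 lay below OKM+SOX2, at 74.18 to 90.09 against 90.18 to 138.7, and Sox3 in OKM+SOX3 overlapped it. The sources used here do not say whether those probes lie in the introduced sequence. Uninfected MEF were labelled fibroblasts and carried the highest summed fibroblast marker level of their set, 87740 to 99460, and 7 of 8 pluripotency markers were higher in the lines than in them.

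Promoters of 4 of the genes are shown because Dnmt3b, Cbx7 and Ezh2 had the largest rises from fibroblasts to stem cell lines, and Smarca1 had the largest fall under both SKM and OKM. Each runs from 250 bases before to 50 bases after a gene start listed by RefSeq in GRCm38.p6, 5′ to 3′ on the gene's strand.
Dnmt3b (chr2:153649199-153649498, plus strand): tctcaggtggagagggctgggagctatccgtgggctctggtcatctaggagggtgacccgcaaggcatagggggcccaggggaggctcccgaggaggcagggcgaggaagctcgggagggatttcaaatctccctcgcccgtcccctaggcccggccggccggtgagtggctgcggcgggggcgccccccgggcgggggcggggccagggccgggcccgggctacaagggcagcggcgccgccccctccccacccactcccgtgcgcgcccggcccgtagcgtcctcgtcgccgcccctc
Cbx7 (chr15:79932597-79932896, minus strand): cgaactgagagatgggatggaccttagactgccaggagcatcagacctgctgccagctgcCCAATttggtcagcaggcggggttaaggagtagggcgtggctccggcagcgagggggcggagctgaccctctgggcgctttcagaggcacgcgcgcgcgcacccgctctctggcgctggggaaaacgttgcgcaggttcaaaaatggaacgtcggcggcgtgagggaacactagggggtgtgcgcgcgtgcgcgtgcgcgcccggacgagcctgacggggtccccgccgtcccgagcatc
Ezh2 (chr6:47594981-47595280, minus strand): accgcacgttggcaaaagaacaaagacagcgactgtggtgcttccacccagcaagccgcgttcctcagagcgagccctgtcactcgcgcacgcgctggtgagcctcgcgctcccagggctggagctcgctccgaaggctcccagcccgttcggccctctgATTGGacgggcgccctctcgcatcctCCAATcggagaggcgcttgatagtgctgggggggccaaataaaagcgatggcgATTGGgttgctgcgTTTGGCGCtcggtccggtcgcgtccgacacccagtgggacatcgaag
Smarca1 (chrX:47892564-47892863, minus strand): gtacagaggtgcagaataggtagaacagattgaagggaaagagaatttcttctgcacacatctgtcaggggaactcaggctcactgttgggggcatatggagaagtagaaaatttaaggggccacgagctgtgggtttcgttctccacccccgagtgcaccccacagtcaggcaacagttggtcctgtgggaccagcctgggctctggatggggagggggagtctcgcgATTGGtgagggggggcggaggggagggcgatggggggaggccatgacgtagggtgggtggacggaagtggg
Capitals mark matches, on either strand, to an E2F motif (TTTCCCGC, TTTCGCGC, TTTGCCGC or TTTGGCGC), the octamer ATTTGCAT, the E-box CACGTG or the CCAAT box. Ezh2 held 1 E2F match and 3 CCAAT boxes, Cbx7 and Smarca1 held 1 CCAAT box each, and Dnmt3b held none of these. The GC box GGGCGG, searched in the same way and not in capitals, had 4 matches in Dnmt3b, 1 each in Cbx7 and Smarca1, and 0 in Ezh2. The sequences of Dnmt3b, Cbx7 and Ezh2 contained 30, 33 and 31 CpG sites and that of Smarca1 contained 9, beside a median of 7 over all 32851 promoters in the table.

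RefSeq listed 124 promoters for 92 of the 105 genes. A GC box was present in 70.2% of them and in 35.7% of all promoters, and their median CpG number was 24. A CCAAT box was present in 37.9% and 37.4%, an E2F match in 5.65% and 2.26%, an E-box in 8.06% and 7.15%, and the octamer in 1.61% and 1.74%. Among genes that were higher in the lines than in fibroblasts, 5.0% of 40 promoters held an E2F match, and among those that were lower none of 31 did. These are counts of letters and not of bound sites.

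The first comparison asked which regulators separate established pluripotent lines from the fibroblasts they are made from. The mean of iPSC G6Gm, iPSC G3, iPSC Dlx3RNAi and ESC R1 (8 arrays) was set against uninfected MEF (2 arrays). Of the 92 genes with a value, 30 were higher and 28 lower in the lines at an adjusted p under 0.05, or 32.6% and 30.4%. The same test called 28.7% of all genes higher and 29.1% lower, so the share of regulators that differed was near that of genes at large. Their median log2 difference was 0.06, beside 0.03 over all genes. By family, DNA methylation genes counted 3 higher and 0 lower of 5, and deacetylases 1 higher and 5 lower of 9. Smarc genes counted 3 higher and 6 lower of 13. Whether the families differed in direction was not tested.

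The 3 genes with the largest rises deposit or read repressive marks. Dnmt3b, a DNA methyltransferase that sets new methylation in early embryos, read 33.2 and 58.5 in MEF, 697 and 663 in iPSC G6Gm, 1291 and 1284 in iPSC G3, 866 and 808 in iPSC Dlx3RNAi and 352 and 468 in ESC R1. Every line array lay far above both MEF arrays (log2 difference 3.33, SE 0.16, adjusted p = 9.13e-15). Cbx7, a Polycomb protein that recruits PRC1 to trimethylated histone H3 lysine 27, rose from 185 ± 13.8 (SD, n = 2) to 2178 ± 567 (SD, n = 8) (log2 difference 3.31, SE 0.23, adjusted p = 1.72e-13). Ezh2, the PRC2 methyltransferase, read 446 and 447 in MEF and 2620 ± 599 (SD, n = 8) in the lines, 3487 and 3303 in iPSC G3 and 2373 and 3178 in ESC R1 (log2 difference 2.44, SE 0.28, adjusted p = 8.53e-09). Its paralog Ezh1, usually the enzyme of resting cells, was not called at 0.47 (adjusted p = 0.121), although all 8 line arrays read above both MEF arrays.

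**Figure D1:**
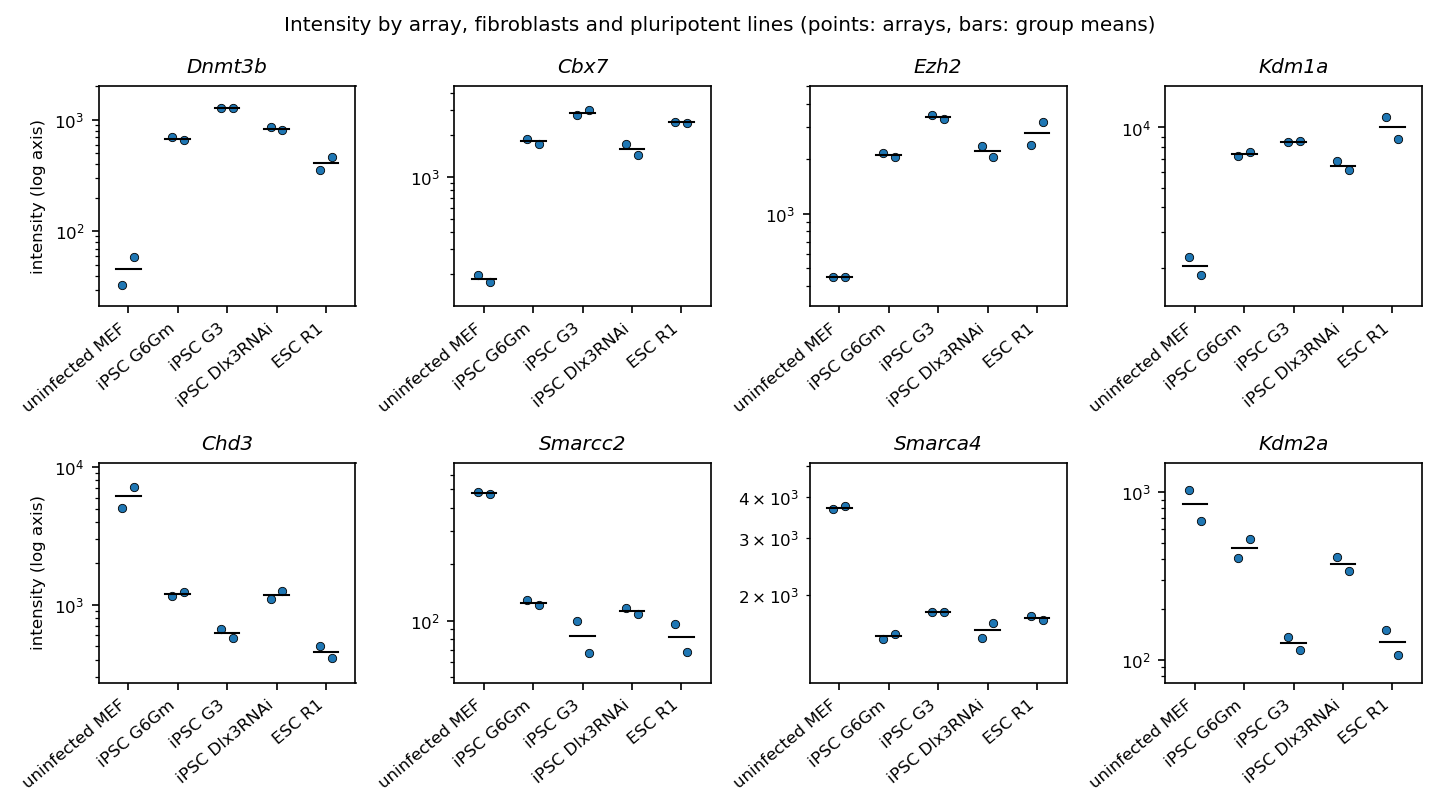
Intensity by array, on a log axis, of 8 chromatin regulators in uninfected MEF, the 3 iPSC lines and ESC R1, with 2 points per group. Dnmt3b, Cbx7, Ezh2 and Kdm1a lie above both MEF arrays in every line, and Chd3, Smarcc2, Smarca4 and Kdm2a lie below them.

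Of the other Polycomb CBX genes, Cbx8 was called higher (log2 difference 0.45, adjusted p = 0.00542), with arrays that overlapped and a call that was lost without uninfected MEF replicate 2, while Cbx6 was lower (log2 difference -1.26, adjusted p = 5.73e-05). Of 9 tested partners of PRC2, 5 were higher and 3 lower, where the test called 28.7% of all genes higher and 29.1% lower. Among the 5 that were higher, the accessory subunits Mtf2 and Jarid2 were at 3.00 and 2.81, Eed at 1.69 and Suz12 at 1.53. The 3 that were lower are not named here. Partners of PRC1 divided, with 5 higher and 6 lower of 13. Whether either list differed from all genes was not tested. Cbx5, which encodes the heterochromatin protein HP1 alpha, was lower (log2 difference -0.73, adjusted p = 0.000521).

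Among DNA methylation genes, the TET dioxygenases were higher together with Dnmt3b. Tet2 read 496 ± 161 (SD, n = 8) against 177 ± 28.4 (SD, n = 2) (log2 difference 1.29, adjusted p = 9.84e-06). Tet3 was called at 0.78 (adjusted p = 0.00727), a call that was lost without uninfected MEF replicate 2 and when a gene's probes were averaged. Dnmt1, the maintenance methyltransferase, and Dnmt3a did not pass, at -0.25 (adjusted p = 0.424) and 0.15 (adjusted p = 0.568). Uhrf1, the partner that guides Dnmt1 to replicated DNA, was higher at 2.46. The other genes of its partner list are not given for this comparison.

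Lysine demethylases split, with 6 higher and 4 lower of 13. Kdm1a (LSD1), which removes mono- and dimethylation from histone H3 lysine 4, read 2260 and 1825 in MEF and 8098 ± 1595 (SD, n = 8) in the lines (log2 difference 1.96, SE 0.19, adjusted p = 5.39e-10). Kdm3a and Kdm4c, which act on histone H3 lysine 9, were higher at 1.54 and 1.20, and Kdm5b, which acts on lysine 4, at 1.49. Kdm2b, a known binder of CpG islands, was higher by 0.94 and its paralog Kdm2a was lower, 273 ± 164 (SD, n = 8) against 851 ± 253 (SD, n = 2) (log2 difference -1.70, SE 0.17, adjusted p = 8.97e-10). Kdm4a was lower as well (log2 difference -1.25, adjusted p = 1.01e-05), so the KDM4 paralogs did not move as one. Kdm5d, a gene of the Y chromosome in cells labelled female, read 270.1 and 222 in MEF and 92.0 ± 19.1 (SD, n = 8) in the lines (log2 difference -1.17, adjusted p = 1.11e-07).

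Methyltransferases gave smaller differences. Suv39h2, which trimethylates histone H3 lysine 9, read 63.9 and 63.9 in MEF and 172 ± 56.5 (SD, n = 8) in the lines (log2 difference 1.04, SE 0.14, adjusted p = 3.03e-07). Setdb1, another enzyme of that mark, was called at 0.44 (adjusted p = 0.00738) with overlapping arrays, and the call was lost without uninfected MEF replicate 2. Setd1a, a histone H3 lysine 4 methyltransferase, was lower (log2 difference -1.39, adjusted p = 1.94e-08), and 8 of the 12 further lysine methyltransferases passed in neither direction. Among arginine methyltransferases Prmt1, the main source of asymmetric dimethylarginine, read 2234 and 2291 in MEF and 7024 ± 857 (SD, n = 8) in the lines (log2 difference 1.61, adjusted p = 0.00265), Prmt8 and Prmt9 were higher at 1.44 and 0.83, and Prmt6 was lower at -1.19.

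Remodellers held the largest fall of all 92 regulators. Chd3, an ATPase of the deacetylase complex NuRD, read 5069 and 7192 in MEF, 1160 and 1244 in iPSC G6Gm, 663 and 575 in iPSC G3, 1092 and 1259 in iPSC Dlx3RNAi and 498 and 407 in ESC R1 (log2 difference -2.88, SE 0.17, adjusted p = 5.12e-15). Its paralog Chd4 was lower by less (log2 difference -0.72, adjusted p = 0.000951), and Chd1l, linked to DNA repair, was higher (log2 difference 1.52, adjusted p = 6.39e-08). In the SWI/SNF complex, paired core subunits moved in opposite directions: Smarcc2 (BAF170) fell from 479.6 ± 7.62 (SD, n = 2) to 100.5 ± 23.0 (SD, n = 8) (log2 difference -1.97, SE 0.22, adjusted p = 3.51e-07), and Smarcc1 (BAF155) rose from 218 ± 35.5 (SD, n = 2) to 519 ± 182 (SD, n = 8) (log2 difference 1.08, SE 0.21, adjusted p = 0.000291). Both alternative ATPases were called lower by their brightest probe, Smarca4 (BRG1) from 3718 ± 60.3 (SD, n = 2) to 1623 ± 128 (SD, n = 8) (log2 difference -1.18, adjusted p = 3.05e-09) and Smarca2 (BRM) at -1.18 (adjusted p = 2.17e-07). The mean over the probes of Smarca4 gave -0.10 (adjusted p = 0.59), so that call was lost. The ISWI ATPase Smarca1 was lower (log2 difference -1.43, adjusted p = 1.04e-05), and Smarcad1 higher (log2 difference 1.25, adjusted p = 1.7e-06).

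ARID genes split, with the SWI/SNF subunit Arid1a and the factor Arid3a higher (0.78 and 0.63) and Arid4b and Arid5b lower (-1.18 and -1.05). The acetyl-lysine readers Brd2 and Brd3 were lower (-1.14 and -0.52), and the call of Brd3 was lost without any of 3 arrays, both of uninfected MEF and iPSC G6Gm replicate 1. The deacetylases called lower were the class II genes Hdac7, Hdac10, Hdac4 and Hdac5, at -1.54, -1.30, -0.97 and -0.89, and Hdac8 (-0.76, lost without uninfected MEF replicate 1). Hdac6, a mostly cytoplasmic enzyme that deacetylates tubulin, was the exception and rose from 487 ± 10.8 (SD, n = 2) to 1478 ± 467 (SD, n = 8) (log2 difference 1.48, SE 0.17, adjusted p = 1.48e-08). Among the sirtuins, Sirt1 and Sirt3 were higher (0.82 and 0.56) and Sirt7 and Sirt2 lower (-1.01 and -0.92).

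**Figure D2:**
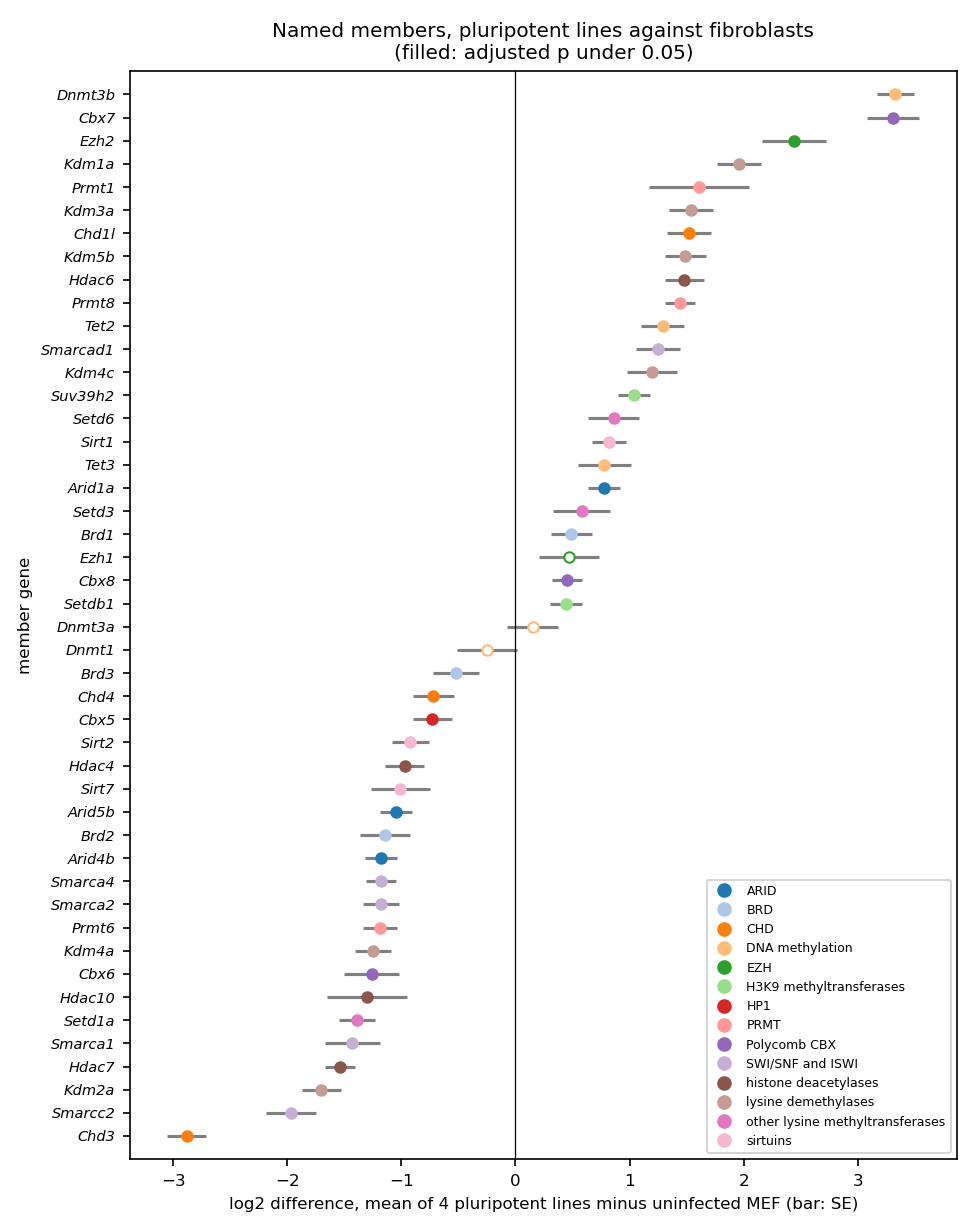
Log2 difference, lines minus uninfected MEF, with its standard error, for the chromatin regulators named in this comparison. Dnmt3b and Cbx7 lie highest, at 3.33 and 3.31, and Chd3 lies lowest, at -2.88.

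Of the 58 calls, 44 were kept whichever array was left out, and leaving out 1 array gave 46 to 59 calls, the fewest without uninfected MEF replicate 2. Markers of growth and of fibroblasts moved with the lines too: 14 of 19 cell cycle genes were higher and 2 lower, and 12 of 14 fibroblast genes were lower. In bulk samples fewer cells of a type and less RNA per cell cannot be told apart, and the part of these markers in the results was not tested.

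The comparison among lines asked where the 3 iPSC lines (6 arrays) differed from ESC R1 (2 arrays). ESC R1 is the only ESC line of the set, and its strain differs from that given for the MEF. Cell origin, strain and line therefore cannot be told apart here. The errors reflect the spread between arrays of a group and leave out the spread between lines. The mean of the iPSC lines was higher for 4 and lower for 10 of the 92 genes, where the test called 7.2% of all genes higher and 6.35% lower. Of the 14 calls, 6 were kept whichever array was left out, and either ESC R1 array, when left out, brought the count down to 8. The 3 lines share the ESC R1 arrays, so their own differences are given side by side and not counted against each other. Alone, iPSC G6Gm had 4 genes higher and 11 lower (9.79% and 7.78% of all genes), iPSC G3 had 1 higher and 3 lower (4.34% and 3.99%), and iPSC Dlx3RNAi had 5 higher and 15 lower (9.62% and 9.79%), or 11 calls without ESC R1 replicate 1.

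Dnmt3b was higher in the iPSC lines than in ESC R1, 935 ± 283 (SD, n = 6) against 410.2 ± 82.2 (SD, n = 2) (log2 difference 1.09, SE 0.16, adjusted p = 5.53e-05), with all 6 iPSC arrays above both of ESC R1. The difference was 1.59 in iPSC G3, 0.99 in iPSC Dlx3RNAi and 0.70 in iPSC G6Gm, where its call was lost without any of 3 arrays. Dnmt3a followed at 0.68 (adjusted p = 0.0432), a call that 6 of the 8 single arrays could remove. Tet2 was lower in the mean of the lines (-0.80 (adjusted p = 0.00922)) and was called in iPSC G6Gm and iPSC Dlx3RNAi at -0.86 and -0.95, and each of these calls was lost when single arrays were left out. Prmt8, an arginine methyltransferase known mainly from the nervous system, was the reverse of Dnmt3b. It read 397 and 419 in ESC R1, 113 and 119.8 in iPSC G6Gm, 172 and 146 in iPSC G3 and 150 and 156 in iPSC Dlx3RNAi. It was lower in each line, at -1.57, -1.21 and -1.25 (mean of the lines -1.34 (adjusted p = 9.73e-07)).

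A pair of remodellers of opposite direction lay closer to ESC R1 in iPSC G3 than in the other iPSC lines. The difference between the iPSC lines was not tested. Chd3 was higher than in ESC R1 by 1.36 in iPSC G6Gm and 1.32 in iPSC Dlx3RNAi, and by 0.43 in iPSC G3, where it did not pass (adjusted p = 0.274). Smarca5, the ISWI ATPase, was lower, with log2 differences of -1.11 and -1.12, and -0.48 in iPSC G3 (adjusted p = 0.0943). Kdm2a read 150.5 and 106 in ESC R1, 402 and 522 in iPSC G6Gm, 411 and 338 in iPSC Dlx3RNAi and 137 and 115 in iPSC G3, so the iPSC arrays as a whole overlapped those of ESC R1. Summed fibroblast markers differed between these lines as well, at 23950 to 23980 in iPSC G3, 37790 to 39210 in ESC R1, 55660 to 57020 in iPSC G6Gm and 66750 to 74180 in iPSC Dlx3RNAi. Chd3 and Kdm2a were both lower in the lines than in fibroblasts, and the part of the fibroblast signal in their differences was not tested.

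Of the 3 tested methyltransferases of histone H3 lysine 9, 2 were lower in iPSC Dlx3RNAi than in ESC R1, and none was higher. Setdb1 read 622 and 584 against 1402 and 1504 (log2 difference -1.23, SE 0.17, adjusted p = 5.04e-06) and Suv39h2 read 99.5 and 118 against 261 and 239.7 (log2 difference -1.01, SE 0.18, adjusted p = 0.000121). Kmt2c, a histone H3 lysine 4 methyltransferase of enhancers, read 291 and 279.7 against 698 and 606 (log2 difference -1.10, SE 0.16, adjusted p = 9.43e-06). These 3 calls were kept whichever array was left out, and Setdb1 was also called in iPSC G6Gm at -0.76. Summed cell cycle markers were 28250 to 29200 in iPSC Dlx3RNAi and 45390 to 45470 in ESC R1. Fibroblast markers summed to 66750 to 74180 and 37790 to 39210 in these lines, and pluripotency markers to 13360 to 14280 and 23760 to 24420. The part of any of these markers was not tested. Hdac7 went both ways, lower in iPSC G3 (log2 difference -0.77, adjusted p = 0.00162) and higher in iPSC G6Gm and iPSC Dlx3RNAi (0.51 and 0.58), the higher calls being lost when single arrays were left out. Ezh2 did not pass in any line, at -0.38, 0.30 and -0.32.

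**Figure D3:**
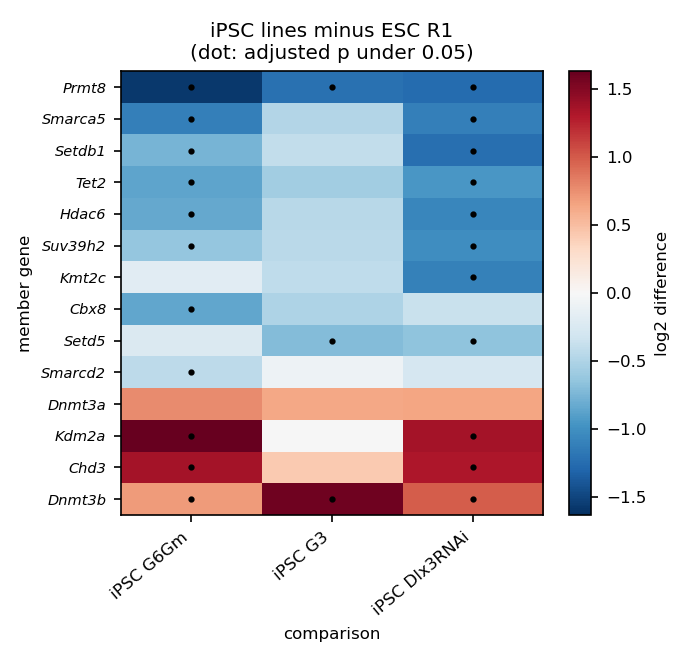
Log2 difference from ESC R1 of 14 chromatin regulators in the 3 iPSC lines, as a colour map with dots where the adjusted p was under 0.05. Prmt8 is lower in all 3 lines and carries a dot in each, Dnmt3b is higher in all 3, and Kdm2a and Chd3 carry dots in iPSC G6Gm and iPSC Dlx3RNAi.

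The ESC B6 arrays stand in a set of their own with no group to compare. They are given as levels of single probes that cannot be ordered against each other. Dnmt3b read 18800, 17270 and 23120, Cbx7 17060, 17240 and 16110, and Ezh2 7094, 6422 and 7381. Prmt7, Kmt2a, Suv39h1, Kdm4d and Arid5a had a value in this set alone, at 15480, 16650 and 16640 for Prmt7, 1210, 1245 and 1233 for Kmt2a, 58.7, 68.8 and 55.5 for Suv39h1, 56.0, 54.0 and 47.2 for Kdm4d and 41.7, 52.8 and 47.2 for Arid5a. The spread between these 3 arrays was small beside the levels.

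The first comparison of mixes asked what the SKM mix did to fibroblasts, as SKM+EV against MEF1 EV (2 arrays each). Of 82 regulators, 4 rose and 14 fell, where the test called 9.99% of all genes higher and 9.69% lower, and their median was -0.17 beside -0.02 over all genes. Only 6 calls were kept whichever array was left out, all of them falls: Smarca1, Smarca2, Kmt2c, Kdm2a, Setd2 and Chd6. There were 8 calls without MEF1 EV replicate 1 and 11 without either SKM+EV array.

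The 14 falls included 5 remodellers and 6 enzymes of lysine methylation, beside Dnmt3a, Cbx5 and Brd8 at -0.93, -0.67 and -0.66, whose calls were each lost when single arrays were left out. Smarca2, the BRM ATPase, read 11090 and 13500 in MEF1 EV and 4432 and 4942 in SKM+EV (log2 difference -1.38, SE 0.20, adjusted p = 4.2e-06). Smarca1 read 1296 and 1130 and then 417 and 406 (log2 difference -1.49, SE 0.31, adjusted p = 0.000591). Kmt2c read 1808 and 1554 and then 826 and 739 (log2 difference -1.07, SE 0.16, adjusted p = 9.83e-06). In each of these genes the MEF1 EV arrays lay above the SKM+EV arrays. Setd2, which trimethylates histone H3 lysine 36, fell with a log2 difference of -0.82, Kdm2a with -0.96 and Chd6 with -0.70. The rises were Setd6, Setd5, Smarcb1 and Hdac5, at 1.09, 0.64, 0.58 and 0.53. They rested on single arrays: Setd6 was lost without SKM+EV replicate 2, Smarcb1 without MEF1 EV replicate 1, and Setd5 and Hdac5 without either of 2 arrays. No ARID, EZH, PRMT, CBX (Polycomb), sirtuin or histone H3 lysine 9 methyltransferase gene passed in either direction. Keratinocyte markers moved in the same comparison, 8 of 10 being higher with a median log2 difference of 4.63, and their summed level went from 4834 to 5158 in MEF1 EV to 108500 to 112600 in SKM+EV. Summed fibroblast markers went from 206400 to 210300 to 159900 to 172000, and the part of either was not tested.

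A parallel comparison set OKM+EV (3 arrays) against MEF2 EV (2 arrays). Here 17 of 94 regulators rose and 23 fell, where the test called 19.8% of all genes higher and 21.1% lower. The spread between the OKM+EV arrays was larger than in other groups, with a median SD of 0.417 on the log2 scale beside 0.0853 to 0.227, and replicate 3 stood apart, so the shared estimate of spread from all 49 arrays is small for this group. Fitted on this set alone, the test called 1 regulator, Smarcb1 (adjusted p = 0.0202). Fitted on this set without OKM+EV replicate 3 it called 41, with 14 higher and 27 lower, and 31 of them were among the 40. With the shared estimate, leaving out 1 array gave 28 to 56 calls, 28 without MEF2 EV replicate 2 and 56 without OKM+EV replicate 3.

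Smarcb1, the SNF5 core subunit of SWI/SNF, rose from 1456 and 1300 in MEF2 EV to 5131, 5121 and 3527 in OKM+EV (log2 difference 1.69, SE 0.14, adjusted p = 1.46e-11). Prmt6, which methylates histone H3 arginine 2, rose from 283 and 310 to 972, 840 and 744 (log2 difference 1.42, SE 0.18, adjusted p = 1.22e-07; 0.0583 is its adjusted p in the set alone). Kmt2c rose from 369 and 382 to 871, 799.7 and 576 (log2 difference 0.92, SE 0.15, adjusted p = 9.23e-06). All 3 OKM+EV arrays lay above both MEF2 EV arrays for these genes. Lysine demethylases that rose were Kdm4c (1.59), Kdm3a (1.20), Kdm6a (1.06), which acts on histone H3 lysine 27, Kdm5d and Kdm7a. Of these, Kdm4c read 108 and 129.8 in MEF2 EV and 322, 341 and 672 in OKM+EV. Kdm5d lies on the Y chromosome, and the cells are labelled female, so what its probe measured is not known here. The Polycomb genes Cbx2 and Cbx8 rose as well (1.04 and 0.71), as did the PRC2 partner Suz12 at 1.11. Other PRC2 partners are not given for this comparison.

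Falls under OKM covered deacetylases, DNA methyltransferases and 5 of the 15 demethylases, as many as rose. Ezh1 read 761 and 712 in MEF2 EV and 146, 169 and 681 in OKM+EV (log2 difference -1.38, SE 0.30, adjusted p = 0.000339), so replicate 3 lay near the controls. Smarca1 read 718 and 1176 and then 211, 190.4 and 713 (log2 difference -1.47, SE 0.28, adjusted p = 8.97e-05), with the same replicate apart. Hdac10 fell with a log2 difference of -1.37, a call that was lost without MEF2 EV replicate 2. Hdac5, Brd3, Kdm4a, Kdm4b, Chd3 and Prmt9 fell with -0.75, -1.08, -0.94, -0.89, -0.81 and -0.68, and these calls were kept whichever array was left out, although that of Kdm4a was lost with the mean over its probes (adjusted p = 0.239). Dnmt1 and Dnmt3a were called at -0.88 and -0.79 with overlapping arrays, and both calls were lost when single arrays were left out. No DNA methylation gene and no deacetylase rose. Myeloid markers marked the control: all 10 tested were lower in OKM+EV, with summed levels of 103300 to 107100 in MEF2 EV and 2511 to 7947 in OKM+EV. Summed keratinocyte markers rose from 3094 to 3462 to 44310 to 71600, and the part of either was not tested.

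**Figure D4:**
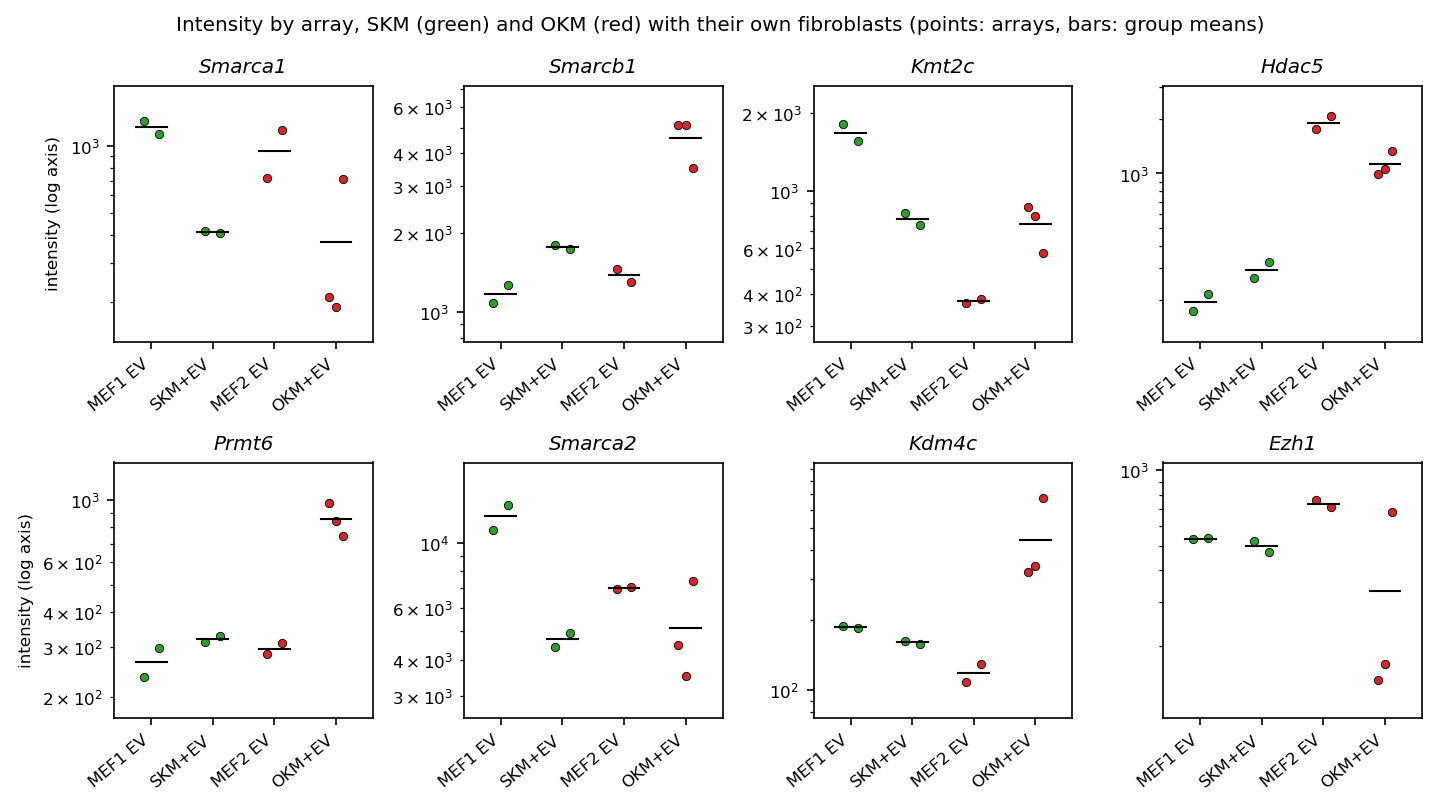
Intensity by array, on a log axis, of 8 chromatin regulators in MEF1 EV, SKM+EV, MEF2 EV and OKM+EV. The first pair and the second pair are from separate sets. Kmt2c is lower in SKM+EV than in its control and higher in OKM+EV than in its own, while Smarca1 is lower under both mixes, with OKM+EV replicate 3 near the control.

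SKM and OKM share no array, so their log2 differences, each taken from its own control, could be tested against each other. This was done in 77 regulators with values in both sets. For 20 of them the effects differed, 5 with the higher effect under SKM and 15 with the higher effect under OKM, where the test called 13.4% and 12.7% of all genes. Kmt2c differed most: its log2 difference was -1.07 under SKM and 0.92 under OKM (difference -1.99, SE 0.22, adjusted p = 4.88e-08). Kdm4c, Kdm6a, Prmt6, Cbx2, Chd9 and Kdm5d, which rose under OKM, had differences of -1.77, -1.26, -1.18, -1.12, -1.15 and -1.12. What the probe of the Y chromosome gene Kdm5d measured in cells labelled female is not known here. Smarcb1 was called higher under both mixes and by more under OKM, with a difference of -1.12 (adjusted p = 0.000109). Hdac5 was called in opposite directions, 0.53 under SKM and -0.75 under OKM (difference 1.28, adjusted p = 0.000102). Prmt9 gave 0.98, while the differences of Hdac10 and Ezh1, 1.73 and 1.29, were lost in 5 and 8 of the 9 cases of leaving out 1 array, and that of Ezh1 was also lost with the mean over probes (adjusted p = 0.0655). With each set fitted alone 15 of these 20 calls were still given, although the OKM effect by itself then called only 1 regulator. With the shared estimate there were 33 calls without OKM+EV replicate 3. The set, the control and the mix changed together, so their parts in a difference cannot be told apart. The controls were not alike within their sets. Summed myeloid markers were 103300 to 107100 in MEF2 EV and 2511 to 7947 in OKM+EV. They were 1707 to 1749 in MEF1 EV and 1425 to 1615 in SKM+EV. The part of the controls was not tested.

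The next comparison took the 9 factors added to SKM, each against the same SKM+EV arrays. Because all 9 share those 2 arrays, their values are set side by side and no agreement between them is counted as a result. Leaving out SKM+EV replicate 1 lowered the count of each of them. GATA4+SKM, with 3 arrays where the others have 2, had 26 regulators higher and 7 lower of 82 (29.0% of all genes higher and 24.8% lower), and GRB2+SKM, HNF4a+SKM and CEBPa+SKM had 23 and 9 (23.2% and 17.1% of all genes), 21 and 9 (22.9% and 19.5%), and 18 and 10 (20.0% and 14.7%). GATA6+SKM had 9 and 4 (11.8% and 10.2%), PAX1+SKM 11 and 2 (9.61% and 6.13%), SOX7+SKM 2 and 5 (6.32% and 5.77%), OCT4+SKM 3 and 2 (5.28% and 5.73%) and MIXL1+SKM 0 and 1 (1.05% and 1.05%). Except for CEBPa+SKM, HNF4a+SKM, GRB2+SKM and GATA4+SKM, which kept 13 to 17 calls whichever array was left out, at most 5 calls were kept per factor.

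In GATA4+SKM 29.0% of all genes were called higher and 24.8% lower. Of the 3 DNA methylation genes with a value, 2 were higher and none was lower. Dnmt1 read 593, 513 and 391 against 154 and 229.7 in SKM+EV (log2 difference 1.25, SE 0.31, adjusted p = 0.0011). Dnmt3b read 366, 416 and 362 against 155 and 139.7 (log2 difference 1.20, SE 0.18, adjusted p = 9.93e-06), and it did not pass in the other 8 groups, although the difference between groups was not tested. Of the other genes with a role in DNA methylation, 4 of 8 partners were higher and none lower. Neither count was tested against the shares of all genes. Arid4b, a subunit of SIN3 deacetylase complexes, read 332, 356 and 265 against 80.6 and 63.9 (log2 difference 1.74, SE 0.17, adjusted p = 2.8e-09). All 3 GATA4+SKM arrays lay above both SKM+EV arrays in these 3 genes.

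Remodellers moved both ways in GATA4+SKM. Chd1l, Chd1, Smarcd3 and Smarca2 were higher at 1.63, 1.15, 1.69 and 0.88. Chd1, which keeps chromatin open in embryonic stem cells, read 438, 448 and 433 against 177 and 185. Chd2 was lower, 277, 302 and 307 against 732 and 644 (log2 difference -1.14, SE 0.13, adjusted p = 1.69e-07), but the mean of its probes gave -0.32, and the call of Smarca2 was lost with the mean over its probes (adjusted p = 0.14). Cbx7 read 309.8, 309.7 and 229 against 97.6 and 119.5 (log2 difference 1.16, SE 0.26, adjusted p = 0.00055). Ezh2 did not pass, at 0.52 (adjusted p = 0.172). Kdm5b, Hdac6 and Prmt6 were higher at 1.09, 0.97 and 0.94, with calls that were kept whichever array was left out. Without SKM+EV replicate 1 the number of calls was 17 in place of 33. In the same arrays 11 of 16 cell cycle genes were higher and 9 of 10 keratinocyte genes lower, with summed cell cycle levels of 30190 to 31860 against 18920 to 21480 in SKM+EV and keratinocyte levels of 20070 to 21340 against 108500 to 112600. The part of either in these results was not tested.

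GATA6+SKM shared with GATA4+SKM the control arrays, and its own 13 calls included 5 that were kept whichever array was left out. Arid3a read 403 and 451 against 141 and 171 (log2 difference 1.29, SE 0.18, adjusted p = 1.41e-06), Chd1l rose by 1.47 and Setdb2, a histone H3 lysine 9 methyltransferase, by 0.88. Hdac7 and Smarcd2 fell, with log2 differences of -0.80 and -0.60. There were 5 calls without GATA6+SKM replicate 2 and 6 without SKM+EV replicate 1. Summed fibroblast markers were 82250 to 83340 in this group and 159900 to 172000 in SKM+EV, and their part was not tested.

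OCT4+SKM changed few regulators, and OCT4 is the factor whose substitutes the SKM groups are labelled to test. Smarcb1 read 1087 and 942 against 1802 and 1729 (log2 difference -0.78, SE 0.15, adjusted p = 0.000413), and this was its one call that held whichever array was left out. Smarca1 read 822 and 958 against 417 and 406 and was called at 1.05 (adjusted p = 0.0222), but lost without any single array of either group. Hdac10 was called at 1.72 from arrays of 3811 and 418 against 364 and 369, so OCT4+SKM replicate 1 decided the value, and the adjusted p reached 0.81 when single arrays were left out. Without OCT4+SKM replicate 1 the count fell to 3 and without SKM+EV replicate 1 to 2.

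In PAX1+SKM, Smarca1 read 1149 and 1356 against 417 and 406 (log2 difference 1.53, SE 0.31, adjusted p = 0.000697), which lies beside the 1296 and 1130 of MEF1 EV. It was the only one of 13 calls that was kept whichever array was left out. Hdac2, Dnmt1, Dnmt3a and Kdm5b were also called higher, at 0.91, 1.12, 0.90 and 1.04. The median over the 82 regulators was 0.24 beside 0.03 over all genes, with 61 of them above 0. This median was also 0.24 in GRB2+SKM and 0.22 in GATA4+SKM, beside 0.07 and 0.06 over all genes. In the other groups it lay between -0.02 (MIXL1+SKM) and 0.13 (CEBPa+SKM). All these groups share the SKM+EV arrays, and the shift was not tested. Without PAX1+SKM replicate 1 or SKM+EV replicate 1 there were 2 calls, and without PAX1+SKM replicate 2 there were 4. None of the 7 calls of SOX7+SKM was kept whichever array was left out, and there was 1 call without SKM+EV replicate 1 or SOX7+SKM replicate 1 and 4 without SKM+EV replicate 2. The single call of MIXL1+SKM was Hdac5, 182 and 172 against 264 and 327 (log2 difference -0.64, adjusted p = 0.0411), and no call was left without any 1 array.

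**Figure D5:**
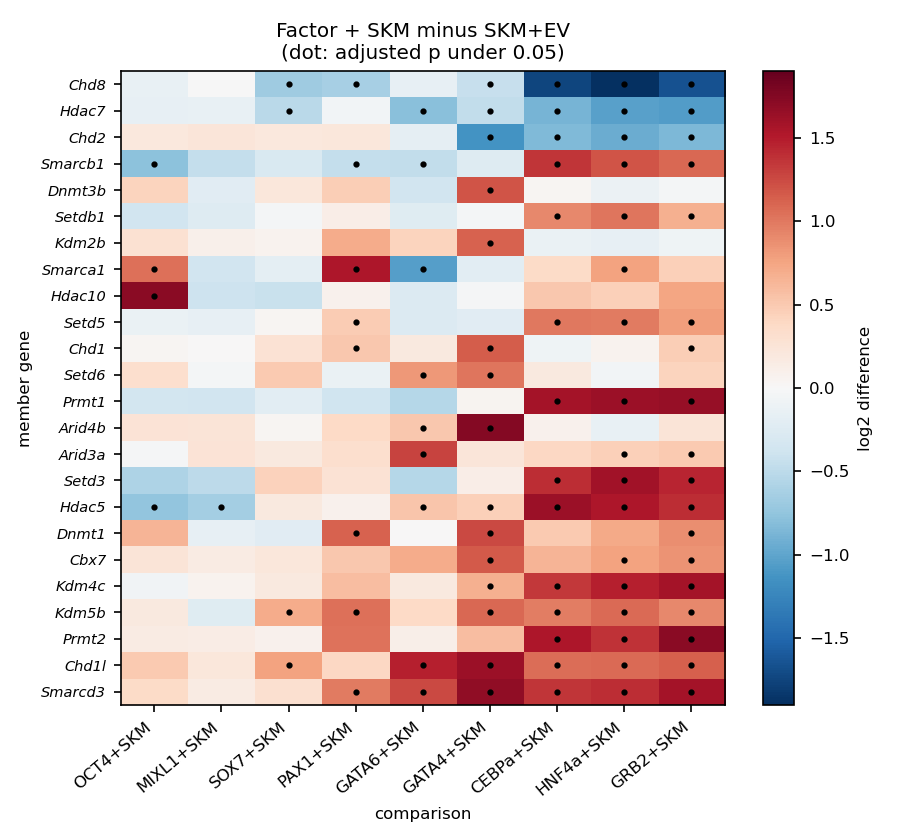
Log2 difference from SKM+EV of 24 chromatin regulators (rows) for the 9 factors added to SKM (columns), as a colour map. Chd8 is lowest in CEBPa+SKM, HNF4a+SKM and GRB2+SKM, at -1.75, -1.90 and -1.66, and Arid4b is highest in GATA4+SKM, at 1.74.

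CEBPa+SKM, HNF4a+SKM and GRB2+SKM gave like values in the largest changes. Chd8, a remodeller known as a repressor of beta-catenin signalling, read 682 and 843 in CEBPa+SKM, 716 and 648 in HNF4a+SKM and 829 and 793 in GRB2+SKM, against 2793 and 2478 in SKM+EV. The log2 differences were -1.75, -1.90 and -1.66 (adjusted p = 1.12e-07, 1.8e-08 and 3.12e-07). Chd6 was lower too, at -0.86, -0.98 and -0.95, and Hdac7 at -0.88, -1.03 and -1.06. Chd2 was called lower at -0.84, -0.94 and -0.85 by its brightest probe, but its probes disagreed, and their mean gave 0.14 in HNF4a+SKM and 0.08 in GRB2+SKM, neither of which passed.

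Rises in the same 3 groups included SWI/SNF, deacetylase, demethylase and methyltransferase genes. Smarcb1 read 4830 and 4356, 3998 and 4148 and 3903 and 3693 in the 3 groups, against 1802 and 1729, with log2 differences of 1.36, 1.19 and 1.09. Hdac5 read 966 and 986, 862 and 965 and 826 and 839.9, against 264 and 327. Setd3, the actin histidine methyltransferase, read 626 and 646, 848 and 624 and 635 and 662, against 224 and 213. In each of these genes all 6 arrays lay above every other array of their set. Kdm4c gave 1.34, 1.47 and 1.58, Setd4 0.77, 0.87 and 0.98, and Setd5 1.00, 0.98 and 0.79. Prmt1 gave 1.58, 1.62 and 1.66, with wide errors (SE 0.56), and its 3 calls were lost without any 1 array. Setdb1 rose by 0.92, 1.01 and 0.67, the last being lost without GRB2+SKM replicate 2.

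The 3 groups were then compared with each other, a test chosen after their values were seen. No regulator differed between HNF4a+SKM and CEBPa+SKM (0.29% of all genes called by limma, 1 regulator at an unadjusted p under 0.05) or between GRB2+SKM and CEBPa+SKM (0.06%, 4 regulators unadjusted). Between HNF4a+SKM and GRB2+SKM, Kdm7a was called at -0.51 (adjusted p = 0.0328) (0.64% of all genes), and no call was left without any 1 array. These 6 arrays also carried a distribution of intensities of their own. Their sorted values differed by 0.208 to 0.577% among themselves, by 0.923 to 3.01% from the other 17 arrays of the set, and by 0.227 to 1.52% among those 17, and their medians were 412.6 to 416.1 against 400.8 to 408.1. Array distribution and added factor therefore cannot be told apart for these groups. The numbers of calls were 15, 18 and 17 in CEBPa+SKM, HNF4a+SKM and GRB2+SKM without SKM+EV replicate 1, 18 without CEBPa+SKM replicate 2, 18 without GRB2+SKM replicate 1 and 20 without GRB2+SKM replicate 2. Summed keratinocyte markers were 37100 to 38880, 20620 to 21020 and 24860 to 25170 in the 3 groups, and 108500 to 112600 in SKM+EV. Their part was not tested.

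The last comparison asked how OKM with SOX1, SOX3 or GMNN differed from OKM+SOX2 in 89 regulators. SOX1 gave 1 higher and 3 lower (3.66% and 2.06% of all genes), SOX3 2 higher and 1 lower (3.42% and 2.89%), and GMNN 0 higher and 2 lower (4.38% and 2.85%). These groups share the OKM+SOX2 arrays, of which replicate 1 stood apart. Without that array no call was left for SOX1 or SOX3, and GMNN had 2, of which 1 was among its own 2, while without replicate 2 there were 12, 12 and 10. No call was left for SOX1 without OKM+SOX1 replicate 1 or for SOX3 without OKM+SOX3 replicate 1, and 1 was left for each without replicate 2 of its own group. GMNN kept 1 without either OKM+GMNN array. Fitted on this set alone, none of the 3 comparisons called a regulator.

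The call that was kept whichever array was left out was Chd2 in OKM+GMNN, 57.2 and 62.9 against 130 and 114 (log2 difference -0.74, SE 0.14, adjusted p = 0.00135; 0.0942 is its adjusted p in the set alone). Chd2 was dim in these arrays, and no GMNN call was left when dim genes were left out. GMNN encodes geminin, an inhibitor of replication licensing. Chd2 read 161 and 194 in OKM+SOX1 and 95.5 and 88.0 in OKM+SOX3, so the OKM+GMNN arrays were the lowest of the set. Hdac11 in OKM+SOX3 shows how replicate 1 set other calls: it read 2131 and 2186 against 368 and 1474 in OKM+SOX2, and was called higher (adjusted p = 0.0106). Prmt8 was lower in OKM+SOX1, 45.1 and 55.6 against 117 and 94.2 (log2 difference -0.74, adjusted p = 0.0136), and Kdm2a read 232 and 343 against 527 and 468 (log2 difference -0.75, adjusted p = 0.0352). Both calls were lost without OKM+SOX2 replicate 1. Dnmt1, Dnmt3a and Ezh2 did not pass against OKM+SOX2 in any of the 3 groups.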

How the data were processed

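RNA of the 49 samples was measured on one-colour arrays. The deposited intensity values are on a linear scale and came in a single table. Arrays with the same pattern of missing probes formed 5 sets, which were taken as normalized separately. How they were corrected for background and scaled is not given in the sources used here. With 2 or 3 arrays per group, precision is limited by their number.

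Of 19426 probes, 15539 had 1 gene symbol in GEO's platform annotation, and symbols were updated through RefSeq's gene table, where 9 regulators were found by an older name. The brightest probe over all arrays stood for a gene. Values were put on the log2(intensity + 32) scale, and limma 3.58.1 in R 4.3.3 (lmFit, eBayes with trend) fitted 1 mean per group over all 49 arrays, so that groups shared 1 estimate of spread. Differences were formed only inside a set, with Benjamini-Hochberg adjustment over all genes of a comparison, two-sided, at 0.05. Fold changes on this scale understate those of dim genes. The script was tested on simulated data for the lines, SKM and OKM, where the shared estimate called too many genes for OKM and, by less, for SKM. The OKM+SOX set was not simulated, and the arrays of OKM+SOX2 also had a wide spread. Counts from each set fitted alone are printed beside those of the shared estimate.

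For the lines, SKM and OKM, the genes named in the text are up to 12 called members with the largest difference in each direction. Elsewhere they are up to 5. These had no overlap between the arrays of both sides, and a brighter side above the median of all genes. For the difference between SKM and OKM neither was required. Added were up to 3 called members per family by size of difference, and all Dnmt, Tet, Ezh and Suv39h genes. Others were chosen after their values were seen. The members, the 8 lists of partner genes and the 6 of cell type markers were chosen with earlier results of these data known. Comparisons among CEBPa+SKM, HNF4a+SKM and GRB2+SKM and the fit of sets without 1 array were added after seeing the data. Replicate numbers were not taken to pair the arrays: 1 of 1 group pair of the set of MEF2 EV and OKM+EV, at 0.251, and 0 of 6, 18 of 55 and 3 of 10 group pairs of the OKM+SOX, SKM and line sets correlated above 0.1.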

Additional observations from a re-analysis of the deposited data

Results flagged for a closer look

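Set, control and mix changed together between SKM and OKM, so their parts cannot be told apart in what follows. The log2 differences of SKM and OKM from their own controls differed in 20 regulators, by limma over all 49 arrays. These are 26.0% of the 77 with a value, where the same test called 13.4% of all genes with the higher effect under SKM and 12.7% under OKM, so the count is at the background. The 5 with the higher effect under SKM were Hdac10, Ezh1, Hdac5, Prmt9 and Arid3a, with log2 differences of 1.73, 1.29, 1.28, 0.98 and 0.66. Among the 15 that were lower, Kmt2c had -1.99, Kdm4c -1.77, Kdm6a -1.26, Prmt6 -1.18 and Chd9 -1.15. Smarcb1, Cbx2 and Kdm5d each had -1.12, Chd6 had -1.02, Cbx8 -0.88, Setdb1 -0.86 and Smarca2 -0.86. Kdm7a had -0.70, Smarca5 -0.68 and Setd2 -0.66.

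The single array that was left out removed the call of Ezh1 in 8 of 9 cases, of Arid3a and Smarca5 in 6, of Hdac10 in 5, of Setd2 in 3, of Smarca2 in 2 and of Setdb1 in 1. With the mean over probes the calls of Ezh1 and Smarca2 were lost (adjusted p = 0.0655 and 0.0871). The other 13 calls were kept in all 9 cases. Kdm5d lies on the Y chromosome, and these cells are labelled female. No group held 4 or more arrays, so no array could be tested as an outlier within its group.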

How the results depend on the processing

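Fitting each set alone gave 35 calls for the iPSC lines against ESC R1 (38, 19 and 37 for iPSC G6Gm, iPSC G3 and iPSC Dlx3RNAi), 35 for SKM, 1 for OKM, beside SKM 15 and 28 for OCT4 and GATA6, 17 and 33 for SOX7 and PAX1, 46, 46 and 50 for CEBPa, HNF4a and GRB2 and 6 for MIXL1, and 0 for SOX1, SOX3 and GMNN. Without OKM+SOX2 replicate 1 that fit gave 0, 0 and 1. With a replicate block there were 26, 26 and 9 calls for the mean of the iPSC lines, iPSC G6Gm and iPSC G3, 35 for SKM against OKM, 9, 22, 22, 46 and 2 for OCT4, GATA6, PAX1, CEBPa and MIXL1, and 13, 18 and 10 for SOX1, SOX3 and GMNN. The numbers were not taken to pair the arrays, so these are no test of the effects. Leaving out dim genes gave 0 for GMNN and 0 for HNF4a against GRB2, for which quantile normalization again also gave 0, and a pseudocount of 64 gave 0 for MIXL1. With the mean over probes Chd2 turned to 0.14 in HNF4a+SKM (adjusted p = 0.478) and 0.08 in GRB2+SKM (adjusted p = 0.709).

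Leaving out 1 array gave 46 to 59 calls for the lines, 8 to 13 for the mean of the iPSC lines, 10 to 11 for iPSC G6Gm, 3 to 4 for iPSC G3, 11 to 16 for iPSC Dlx3RNAi, 8 to 13 for SKM, 28 to 56 for OKM and 14 to 33 for their difference. It gave 2 to 4 for OCT4, 5 to 12 for GATA6, 1 to 5 for SOX7, 2 to 9 for PAX1, 17 to 31 for GATA4, 15 to 24 for CEBPa, 18 to 26 for HNF4a, 17 to 25 for GRB2, 0 to 0 for MIXL1, 0 to 12 for SOX1, 0 to 12 for SOX3 and 1 to 10 for GMNN. With 2 arrays per group this leaves 1, assumed to vary like the other groups. Over all results and settings 4383 values kept direction and call, 489 lost the call, 49 gained it and 2 turned. The cause of these changes was not tested.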

Other observations

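Genes that work with the regulators, and that the naming rule leaves out, also differed between the lines and uninfected MEF by the same limma test, at an adjusted p under 0.05, which called 28.7% of all genes higher and 29.1% lower. The genes named here were chosen after their values were seen. Of subunits of histone H3 lysine 4 methyltransferase complexes, Ash2l was higher by a log2 difference of 1.89, Wdr5 by 1.57 and Rbbp5 by 0.64, while Men1 was lower at -0.86. Ehmt2 (G9a), which dimethylates histone H3 lysine 9, was lower at -1.32 and the demethylase Phf2 at -1.68. Of the list of further histone methylation genes these come from, 5 of 16 were higher and 5 lower, near the shares of all genes. Among corepressor subunits, Sap30 of the SIN3 complex was higher at 3.30 and Rcor2, a partner of Kdm1a, at 1.01, while Sap18 was lower at -1.29. In NuRD, Mta3 was higher at 1.08 and Mta1 and Mta2 were lower at -0.82 and -0.83. Of the acetyltransferases, Hat1 and Kat2a were higher, at 2.24 and 0.65, and Ep300 was lower at -0.93.

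In GATA4+SKM, where 29.0% of all genes were called higher than in SKM+EV and 24.8% lower, 4 of 5 acetyltransferase genes were higher and none lower, with Ncoa3 at 1.36, Ncoa1 at 0.88, Kat2b at 0.71 and Ep300 at 0.58. Under OKM, where 19.8% of all genes were called higher and 21.1% lower, Ncoa3, Ep300 and Ncoa1 were lower than in MEF2 EV, at -1.73, -0.88 and -0.87, and Kat2a was higher at 1.28. The methyl-CpG binding genes Mbd1, Mbd2 and Mbd4 were higher in GATA4+SKM at 1.11, 0.83 and 0.95, as was the remodeller Hells at 0.97. Of the same list, Uhrf1, Mbd4 and Mbd3 were lower under OKM, at -0.98, -0.87 and -0.82. The OKM values rest on the estimate of spread shared by all 49 arrays, which is small for OKM+EV. Of the SWI/SNF partners, 3 of 11 were higher and 2 lower in the lines, no larger shares than those of all genes given above.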
